A study of Mus musculus with 4 samples.

Results

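The genes described here are 10 that mark resident macrophages of the peritoneal cavity and of other serous or connective tissues, namely Gata6, Timd4, Lyve1, Folr2, Cd163, Vsig4, Marco, Mrc1, Icam2 and Fcna. All 10 were found by symbol among the 32285 genes of the count matrices, and their level and joint detection were measured in single macrophages and per library. Ascites of female FVB mice was collected 6 weeks after injection of Br-Luc tumor cells, an ovarian cancer line of the mouse that lacks p53 and Brca1 and carries Myc and a myristoylated Akt. The mice had received either a control siRNA (siCont, 2 libraries) or an siRNA against FXR1 (siFXR1-LNA, 2 libraries), both delivered into the peritoneum with jetPEI. Per the paper both siRNAs carried locked nucleic acids, though the label siCont does not name them. Ascites of 3 mice was pooled for each library, so the spread between the 2 libraries of a group is between pools, and no value belongs to 1 mouse. Tumor, inoculation, carrier and locked nucleic acids were common to both groups, and no ascites-free or untreated cavity was among the libraries.

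A barcode was called a macrophage when C1qa, C1qb, C1qc, Csf1r and Adgre1, the complement C1q subunits, the receptor of colony-stimulating factor 1 and F4/80, together gave at least 3 unique molecular identifiers (UMIs). This took 24505 of 132644 kept barcodes, 9775 and 2836 of them with siCont and 5436 and 6458 with siFXR1-LNA. Median depth in them was 3078, 7105, 4092 and 5158 UMIs, and 15 to 93 macrophage barcodes were shared between any 2 libraries. Fxr1, the gene the siRNA was made against, stood at 62.7 and 58.1 CPM (UMIs of the gene scaled to an equal total of macrophage UMIs in each library) in the siCont libraries and at 79.9 and 72.8 CPM in those labelled siFXR1-LNA. In these macrophages it was not lower in the libraries labelled siFXR1-LNA (log2 fold change 0.48 ± 0.13 (SE), edgeR adjusted p = 0.105), so the groups are called by their labels throughout. The paper reports lower Fxr1 in epithelial cells of its siFXR1-LNA group, a comparison not made here. The macrophage label held only in part, since 27.3 to 45.5% of the called barcodes had a sum of 3 to 5 UMIs of the 5 genes, 21.3 to 47.5% had no UMI of Csf1r or Adgre1, and 3.70 to 29.8% had at least 3 UMIs of tumor or mesothelial markers. Neutrophil markers at that level were in 0.307% and 3.17% of called barcodes in the siCont libraries and in 9.84% and 18.9% in the siFXR1-LNA libraries, and B cell markers in 8.79% and 5.57% against 1.05% and 2.17%. No doublet caller was run. Levels, their test, detection and co-detection were therefore also taken in a stricter set of macrophages, with at least 10 UMIs of the 5 genes and fewer than 2 UMIs of markers of B cells, T cells, neutrophils, dendritic cells and tumor or mesothelial cells, which kept 1883, 1290, 933 and 1224 cells.

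Macrophages of serous cavities fall into a large resident population, which in the peritoneum depends on the transcription factor GATA6 and renews itself locally, and smaller populations that monocytes replenish. GATA6 takes its cue from retinoic acid made by mesothelial and stromal cells of the omentum, and it switches on cavity-specific genes. Other resident macrophages, along vessels and in connective tissue, are known by LYVE1 and FOLR2 in place of GATA6, and many resident cells of both kinds carry scavenger receptors that clear debris, apoptotic cells and lipoproteins.

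By role, the 10 genes comprise 1 transcription factor (Gata6), a phosphatidylserine receptor for apoptotic cells (Timd4), an adhesion molecule of large peritoneal macrophages that lymphocytes and endothelium also carry (Icam2), a complement receptor (Vsig4), a class A scavenger receptor (Marco), the hemoglobin-haptoglobin receptor (Cd163), the mannose receptor (Mrc1), a folate receptor (Folr2), a hyaluronan receptor (Lyve1) and a secreted lectin of the complement system (Fcna). RefSeq promoter windows, from 250 bases before to 50 bases after the start site, were at hand for 7 of the 10, and not for Gata6, Lyve1 and Icam2. The windows of 4 genes are shown, in GRCm38.p6 and 5′ to 3′ on the gene's strand, because these genes stand for the different behaviors described next. Timd4 (chr11:46810549-46810848, plus strand) was higher in cells with Alox15 or Prg4, Folr2 (chr7:101857141-101857440, minus strand) in cells with Ccl8 or Cbr2, Fcna (chr2:25627925-25628224, minus strand) in both, and Cd163 (chr6:124304401-124304700, plus strand) changed its place between the groups. The division was not clean, since Timd4 was also higher with Ccl8 or Cbr2 in 3 of 4 libraries. Capitals mark GATA motifs (AGATAA, or the same with T as its first letter, G as its last or both), MAF half-sites (TGCTGA) and PU.1 motifs (GAGGAA), on either strand.
Timd4: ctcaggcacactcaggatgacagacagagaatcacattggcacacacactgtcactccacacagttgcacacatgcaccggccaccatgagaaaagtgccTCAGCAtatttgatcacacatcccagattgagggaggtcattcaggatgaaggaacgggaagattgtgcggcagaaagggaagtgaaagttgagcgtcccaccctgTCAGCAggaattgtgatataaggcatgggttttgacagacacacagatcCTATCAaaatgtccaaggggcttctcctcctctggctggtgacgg
Folr2: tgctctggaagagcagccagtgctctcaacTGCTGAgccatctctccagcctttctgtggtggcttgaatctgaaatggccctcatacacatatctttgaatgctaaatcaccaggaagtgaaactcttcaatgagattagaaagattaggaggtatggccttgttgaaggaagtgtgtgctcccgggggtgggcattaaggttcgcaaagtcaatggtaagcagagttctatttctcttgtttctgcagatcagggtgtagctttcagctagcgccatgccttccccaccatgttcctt
Cd163: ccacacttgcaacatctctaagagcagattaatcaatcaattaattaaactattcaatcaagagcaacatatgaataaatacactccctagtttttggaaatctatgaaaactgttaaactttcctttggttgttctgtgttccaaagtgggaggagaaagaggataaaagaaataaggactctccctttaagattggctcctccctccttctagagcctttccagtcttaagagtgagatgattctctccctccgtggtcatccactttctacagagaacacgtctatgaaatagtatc
Fcna: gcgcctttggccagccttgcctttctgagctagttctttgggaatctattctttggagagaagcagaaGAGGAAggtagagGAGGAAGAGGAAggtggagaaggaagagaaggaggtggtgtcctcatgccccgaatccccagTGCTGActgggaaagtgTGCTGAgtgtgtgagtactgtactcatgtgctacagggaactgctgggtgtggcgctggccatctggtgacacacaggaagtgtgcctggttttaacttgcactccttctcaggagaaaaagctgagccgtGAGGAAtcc

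Timd4 was the only 1 of the 7 windows with a GATA match, which overlapped no other match and lay just after the start site, and it had 2 MAF half-sites. Fcna held 4 PU.1 matches and 2 MAF half-sites, the most of the 7. Folr2 had 1 MAF half-site, and the Cd163 window held none of these letters. The Vsig4 window had 1 MAF half-site and 2 PU.1 matches, that of Marco 1 PU.1 match and that of Mrc1 3 PU.1 matches. Of 32841 mouse windows of the same length, 29.8% held a GATA match, 19.5% a MAF half-site and 28.3% a PU.1 match, so letters of this kind are common, and no match was read as a bound site.

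Of the 10 genes, 7 had smaller values in both libraries labelled siFXR1-LNA than in either siCont library, 2 had larger values and 1, Gata6, overlapped. Among all 15474 genes tested, 38.6% were lower and 24% higher without overlap, against 7 and 2 of the 10 here. When tested with edgeR (quasi-likelihood, with p-values adjusted by Benjamini-Hochberg over all genes), 2 of the 10 passed the 0.05 threshold, both downward (Lyve1 and Folr2), where 1.16% of all genes tested were called lower and 2.13% higher. The median log2 fold change of the 10 was -2.04, beside 0.02 over all genes tested. In bulk sums of this kind, fewer cells of a type and less RNA per cell cannot be told apart. Shares of cells and splits within macrophages follow as descriptions, and they do not fully separate these either.

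**Figure D1:**
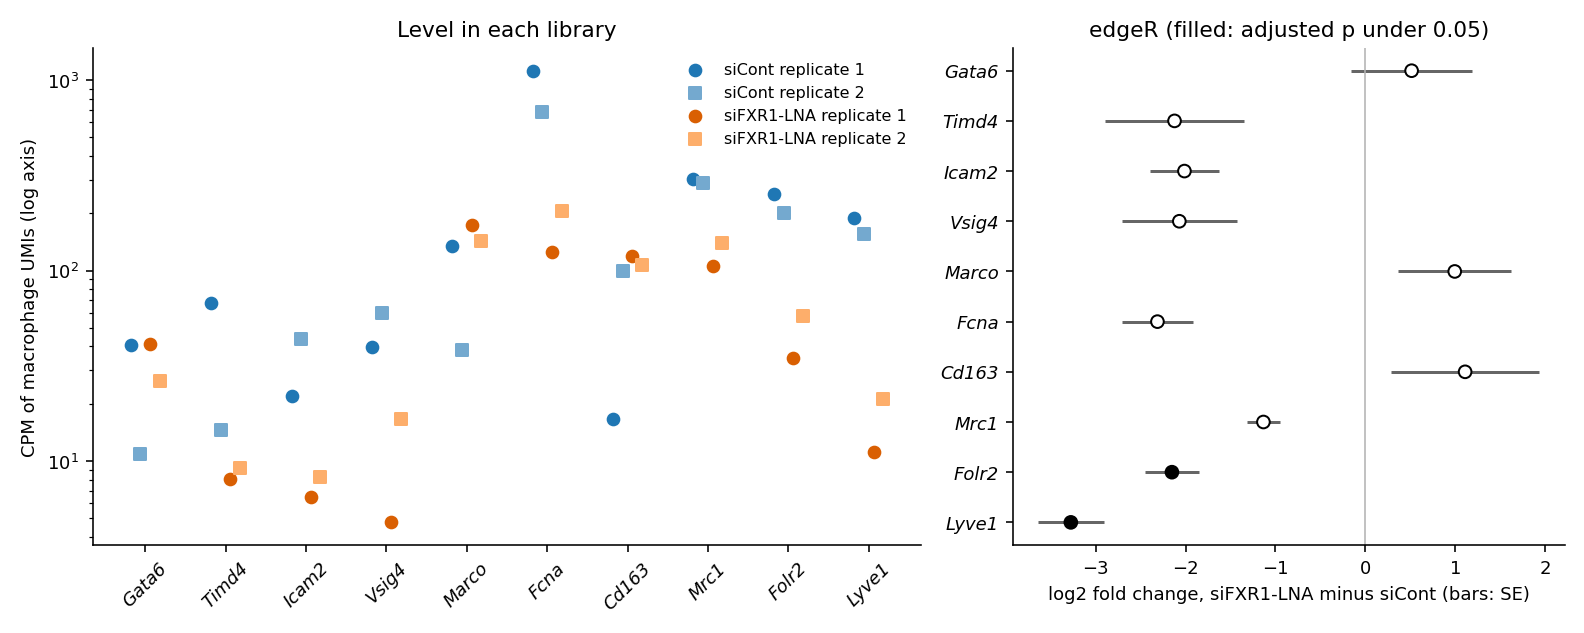
Left, CPM of macrophage UMIs on a log axis for each gene, 1 point per library (circles replicate 1, squares replicate 2). Right, edgeR log2 fold change, siFXR1-LNA minus siCont, with its SE as bars and filled points for an adjusted p under 0.05. Only Lyve1 and Folr2 are filled, and the 2 siFXR1-LNA points lie below both siCont points for 7 genes.

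Lyve1, the hyaluronan receptor (chromosome 7, 110850607 to 110863239, minus strand; GRCm38), had 189 and 156 CPM in the siCont libraries and 11.2 and 21.1 CPM in the siFXR1-LNA libraries. Every siFXR1-LNA value was far under both siCont values, and the fitted difference was 9.68-fold (log2 fold change -3.28 ± 0.37, adjusted p = 0.0382). Folr2, the folate receptor (chromosome 7, 101839988 to 101857194, minus strand), had 252 and 200 CPM against 35.0 and 57.6 CPM. It was lower by 4.44-fold (log2 fold change -2.15 ± 0.30, adjusted p = 0.0488). Without siFXR1-LNA replicate 1 or without replicate 2, neither gene passed (adjusted p from 0.183 to 0.284 by edgeR), nor did any other of the genes tested. Among the 8 genes that did not pass, 5 had smaller values in both siFXR1-LNA libraries. Mrc1 (chromosome 2, 14229392 to 14332057, plus strand) had 302 and 290 CPM against 106 and 139 CPM, with an adjusted p of 0.0552. Fcna (chromosome 2, 25624666 to 25628030, minus strand) had 1120 and 679 CPM against 125 and 205 CPM, with an adjusted p of 0.0574. It had the highest level of the 10 in both siCont libraries, on a scale of 3′ UMIs that needs no division by length.

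Among genes of large peritoneal cells, Vsig4 and Timd4 were less even between replicates (SE of the log2 fold change 0.64 and 0.77) than Icam2 (0.39). Icam2 (chromosome 11, 106377656 to 106388075, minus strand) had 21.8 and 43.8 CPM against 6.47 and 8.22 CPM (adjusted p = 0.0666). Vsig4 (chromosome X, 96247203 to 96293438, minus strand) had 39.7 and 60.0 CPM against 4.77 and 16.6 CPM (adjusted p = 0.133). Timd4 (chromosome 11, 46810800 to 46844332, plus strand) had 67.2 and 14.5 CPM against 8.06 and 9.14 CPM (adjusted p = 0.171), so the gap between the siCont replicates exceeded that between siCont replicate 2 and the siFXR1-LNA libraries. Its log2 fold change was -2.12 with all libraries and -0.66 without siCont replicate 1.

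Cd163 and Marco had larger values in the siFXR1-LNA libraries, and neither passed the test. Cd163 (chromosome 6, 124304656 to 124330527, plus strand) had 16.7 and 99.7 CPM in the siCont libraries and 119 and 107 CPM in the siFXR1-LNA libraries (log2 fold change 1.11 ± 0.83, adjusted p = 0.437). A single siCont library was low and the other close to the siFXR1-LNA values, and the log2 fold change was 0.28 without siCont replicate 1 and 2.90 without siCont replicate 2. Marco (chromosome 1, 120474538 to 120505024, minus strand) had 135 and 38.3 CPM against 174 and 142 CPM (log2 fold change 0.99 ± 0.63, adjusted p = 0.365), and the log2 fold change was 2.14 without siCont replicate 1 and 0.37 without siCont replicate 2. In siFXR1-LNA replicate 2, a single cell held 373 Marco UMIs, and without it that library stood at 133 CPM, within the range of the siCont libraries.

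In the stricter macrophages, 5 of the 10 genes were called lower, where 7.48% of 12720 genes were, and none was called higher, where 8.18% were. This set was chosen after the data had been seen. Lyve1 had 304 and 174 CPM against 22.1 and 35.6 CPM (log2 fold change -2.81, adjusted p = 0.00699), and Folr2 had 416 and 243 CPM against 56.3 and 99.1 CPM (-1.85, adjusted p = 0.0223). Icam2 with 29.8 and 49.6 against 8.67 and 11.6 CPM (adjusted p = 0.0186), Fcna with 1854 and 802 against 214 and 356 CPM (adjusted p = 0.0349) and Mrc1 with 479 and 329 against 169 and 204 CPM (adjusted p = 0.0432) also passed. Vsig4 (adjusted p = 0.0528), Timd4 (adjusted p = 0.152), Cd163 (adjusted p = 0.259), Marco (adjusted p = 0.378) and Gata6 (adjusted p = 0.396) did not.

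To separate depth from detection, each macrophage was thinned to 1000 UMIs, which left out 17 to 352 shallower cells per library. At that depth a Lyve1 UMI was found in 8.69% and 7.11% of siCont macrophages and in 0.849% and 1.59% of siFXR1-LNA macrophages. Folr2 was found in 13.2% and 13.5% against 2.92% and 3.96%, Mrc1 in 14.5% and 19.1% against 8.21% and 9.14%, and Fcna in 32.0% and 24.4% against 7.46% and 10.5%. Detection was thus less frequent in both siFXR1-LNA libraries for the 4 most abundant of the genes that were lower. Icam2 was in 1.73% and 3.13% against 0.369% and 0.738%, Vsig4 in 1.88% and 2.57% against 0.314% and 0.754%, and Timd4 in 4.03% and 1.19% against 0.609% and 0.565%. Cd163 went the other way, with 1.03% and 4.72% against 6.59% and 5.10%, as did Marco with 5.16% and 2.12% against 6.27% and 6.41%. These 9 genes, 7 lower and 2 higher, did not overlap between groups (25.5% of all genes tested were lower and 28.2% higher without overlap), and a two-sided exact permutation test over 2 against 2 libraries gave p = 0.333 for each, the smallest p this design allows. Gata6 overlapped, with 4.50% and 1.23% against 5.00% and 3.88% (exact permutation p = 0.667). In the stricter set at that depth this was different for both, since Marco overlapped, with 9.84% and 3.35% against 8.59% and 6.21%, and Gata6 did not, with 1.72% and 1.40% against 2.36% and 2.29%. Without thinning, a Lyve1 UMI was in 17.4% and 15.6% against 2.50% and 4.61% of macrophages, and a Fcna UMI in 48.6% and 42.1% against 15.9% and 23.7%.

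Cells with several of the genes were also fewer. At 1000 UMIs, at least 3 of the 10 genes were detected in 10.1% (exact 95% interval 9.50 to 10.7%) and 9.23% (8.16 to 10.4%) of siCont macrophages, and in 1.27% (0.992 to 1.61%) and 1.82% (1.51 to 2.18%) of siFXR1-LNA macrophages. The mean number of the genes detected per macrophage was 0.867 and 0.790 against 0.386 and 0.426, and 50.5% and 55.1% against 69.4% and 67.8% of macrophages had none. The intervals cover counting error only, and the difference between groups was not tested for this sum.

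Gata6 (chromosome 18, 11052064 to 11085635, plus strand), the transcription factor, was lower in called macrophages than in barcodes without macrophage UMIs. It had 40.6 and 10.9 CPM in siCont macrophages and 41.3 and 26.3 CPM in siFXR1-LNA macrophages, whereas kept barcodes with no UMI of the 5 macrophage genes had 61.6 and 15.2 CPM and 97.0 and 54.0 CPM. Unthinned, a Gata6 UMI was in 12.9%, 6.17%, 16.1% and 13.4% of macrophages and in 10.2%, 3.54%, 13.2% and 9.45% of the barcodes with no macrophage UMI, which were shallower. A positive macrophage held 1.24 to 1.29 Gata6 UMIs on average, and barcodes with tumor or mesothelial markers and no macrophage UMI had 81.6 to 130 CPM. Its level fell with the strength of the macrophage call in 3 libraries, from 67.4, 74.5 and 52.2 CPM at a sum of 3 to 5 UMIs to 22.5, 27.9 and 12.4 CPM at 30 or more, and changed least in siCont replicate 2, where it was 10.7 CPM at 30 or more. The unthinned share of cells with a Gata6 UMI went from 13.1%, 16.2% and 12.9% to 12.1%, 17.5% and 10.7% in those 3 libraries. In siCont replicate 2 it went from 4.13% to 7.65%. Median depth rose between these sums, from 1966.5, 2151.5 and 2650.5 to 5975, 7249 and 9888 UMIs in the 3 libraries and from 2579 to 9271 UMIs in siCont replicate 2. Between groups Gata6 did not pass the test (log2 fold change 0.51 ± 0.67, adjusted p = 0.659), and in the stricter macrophages it had 17.4 and 10.9 CPM against 24.2 and 11.5 CPM.

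**Figure D2:**
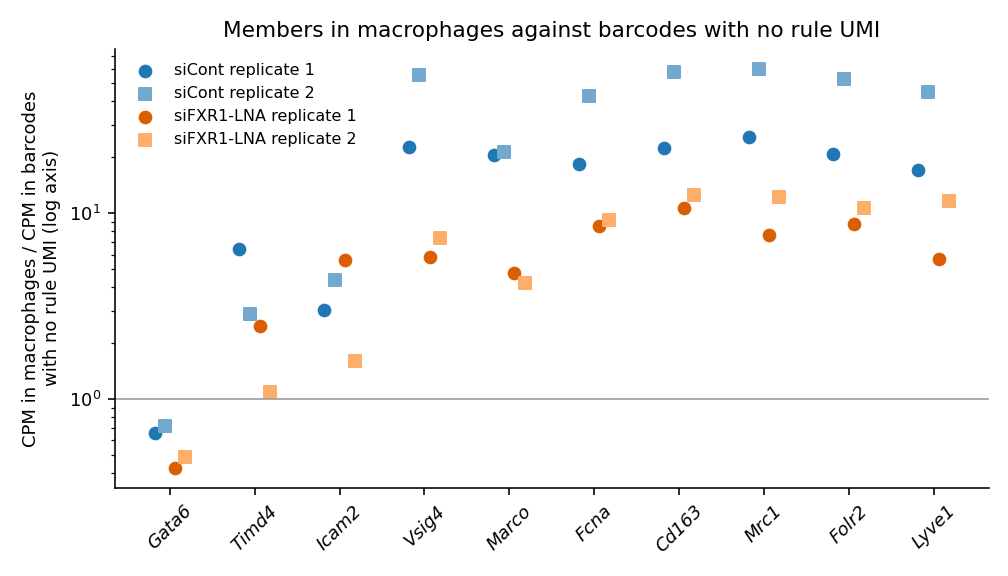
Ratio, on a log axis, of CPM in called macrophages to CPM in kept barcodes with no UMI of the 5 macrophage genes, 1 point per library (circles replicate 1, squares replicate 2). Gata6 lies under 1 in all 4 libraries (0.43 to 0.72), Timd4 and Icam2 reach 1.09 and 1.60 in siFXR1-LNA replicate 2, and the other 7 genes lie above 4.

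The other genes stood above that background in each library, though not equally. Ratios of CPM in macrophages to CPM in barcodes without a macrophage UMI were 7.69 to 60.0 for Mrc1, 8.77 to 52.7 for Folr2, 10.7 to 57.8 for Cd163, 8.53 to 42.8 for Fcna, 5.65 to 45.2 for Lyve1, 5.79 to 55.4 for Vsig4 and 4.23 to 21.3 for Marco. They were 1.09 to 6.41 for Timd4 and 1.60 to 5.59 for Icam2, which other cells also carried. Barcodes with dendritic cell markers had 38.1 and 64.7 Timd4 CPM in the siCont libraries, on 8 and 56 UMIs, the latter above the macrophages of siCont replicate 2. In the siFXR1-LNA libraries 8 and 14 such barcodes held 1 and 6 Timd4 UMIs. Barcodes with B cell markers had 31.3 and 36.8 Icam2 CPM in the siCont libraries, on 16 and 49 UMIs, and held 1 and 2 Icam2 UMIs in the siFXR1-LNA libraries, too few to place a level. The shares of barcodes without a macrophage UMI that held a Lyve1 UMI were 2.31%, 0.955%, 0.328% and 0.437%, each well under the share of macrophages of the same library.

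Detection in the same cell was then counted for each pair of the genes. Over 45 pairs at 1000 UMIs, 26 had a log2 odds ratio above 0 in all 4 libraries and 3 in none. In 3 of the 26, all with Vsig4, at least 1 library had no cell with both genes, so that its sign came from the constant added to each count, and 23 had joint cells in every library. The highest median was that of Lyve1 with Fcna (3.07, from 2.77 to 3.40), with 799 cells holding both, followed by Lyve1 with Folr2 (2.58, from 2.21 to 3.86) on 408 cells and Timd4 with Lyve1 (2.49) on 99 cells, 90 of them in siCont replicate 1. Timd4 was also found in the same cells as Fcna (2.05, on 283 cells) and Marco (1.93, on 104 cells). Timd4 with Vsig4 (2.34) and Vsig4 with Icam2 (2.29) rest on 39 and 25 joint cells, with none in 1 siFXR1-LNA library each. The 3 pairs under 0 in each library were Gata6 with Cd163, Mrc1 and Folr2, with medians of -0.72, -0.67 and -0.44. This was not kept in the stricter macrophages, where Gata6 with Cd163 had a median of 0.14 and was above 0 in 3 of 4 libraries, Gata6 with Folr2 one of 0.02 and above 0 in 2, and Gata6 with Mrc1 one of -0.67 and above 0 in 1. There, 20 pairs were above 0 in all 4 libraries, 6 of them without a joint cell in some library. Lyve1 with Fcna again had a high median (2.63, on 367 joint cells), and only Marco with Mrc1 lay under 0 in each library, with a median of -0.90. Timd4 with Lyve1 was above 0 in 3 of 4 libraries of the stricter set. Of its 48 joint cells there, 45 were in siCont replicate 1 and none in siFXR1-LNA replicate 1. These ratios, shown in the plot of pairs, are descriptions over cells of 1 library, which share depth and free RNA, and carry no p.

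**Figure D3:**
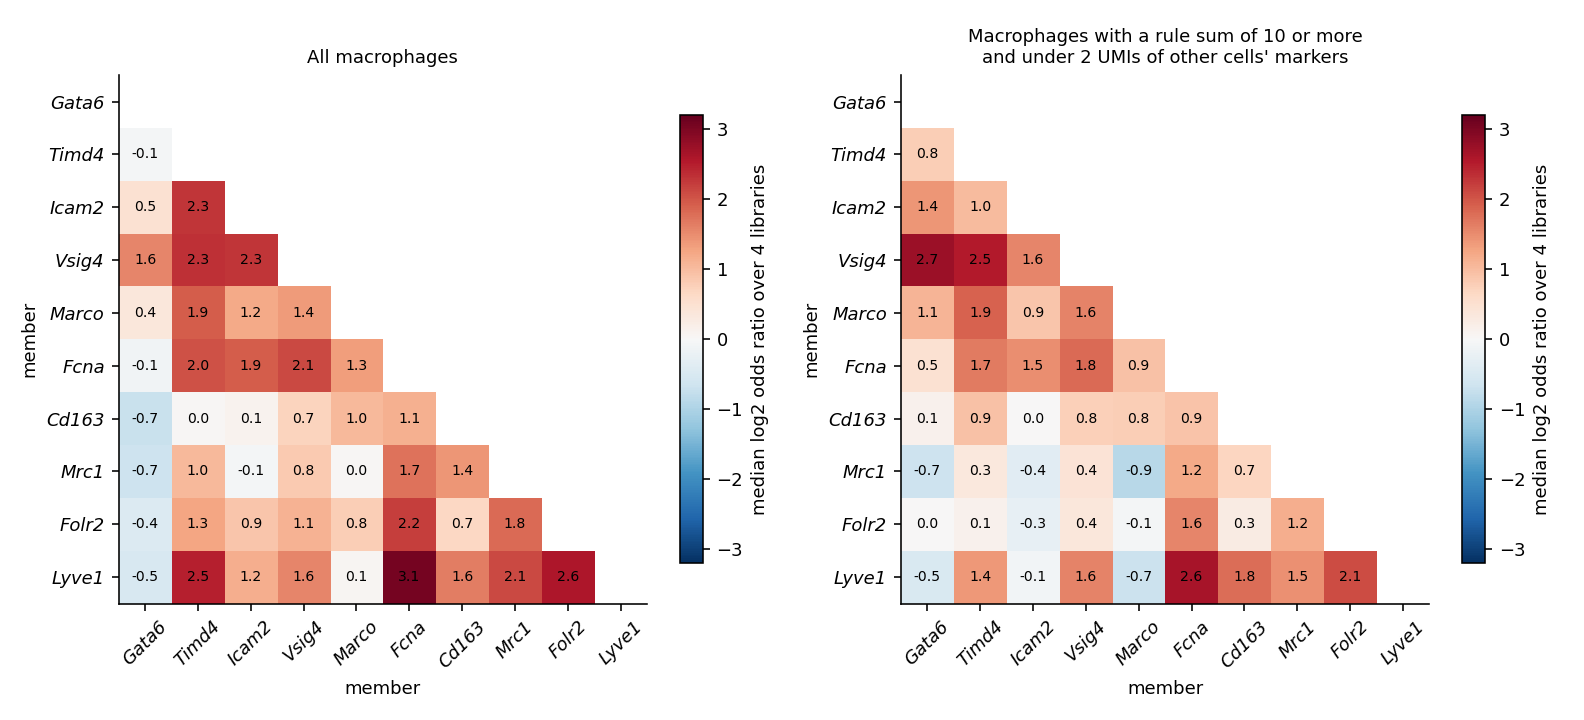
Median over 4 libraries of the log2 odds ratio that 2 of the genes are detected in the same cell at 1000 UMIs, in all macrophages (left) and in the stricter set (right). Lyve1 with Fcna is among the darkest red in both (3.07 and 2.63), and medians under 0, in blue, are 7 pairs on the left, 6 of them with Gata6, and 8 on the right, 2 of them with Gata6.

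Genes outside the 10 were then used to split the stricter macrophages of each library. Cells with at least 2 UMIs of a gene pair were set against cells with none, with pairs taken from the lists for large peritoneal cells (Alox15, a lipoxygenase, and Prg4, lubricin), Lyve1 tissue macrophages (Ccl8, a chemokine, and Cbr2, a carbonyl reductase), inflammatory macrophages (Nos2, which makes nitric oxide, and Acod1, which makes itaconate) and monocyte-derived cells (Ccr2 and Ly6c2). The pairs were chosen after the data had been seen, so the splits are described and not tested.

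Cells with Alox15 or Prg4 numbered 275 and 255 with siCont and 122 and 125 with siFXR1-LNA, or 14.6%, 19.8%, 13.1% and 10.2% of the stricter macrophages. Icam2 was 4.48 to 17.5 times as high in them as in cells with neither, at 81.1, 154, 51.0 and 49.6 CPM. Vsig4 was 2.87 to 11.9 times as high, Timd4 2.77 to 9.68 times and Fcna 1.67 to 8.60 times. Each of these was higher with Alox15 or Prg4 in 4 of 4 libraries. Gata6 was too, at 26.4, 35.0, 74.3 and 30.3 CPM with the pair against 15.6, 4.14, 17.3 and 9.35 CPM without, which rests on 33 to 80 UMIs per library in the cells with the pair. Folr2 had the opposite direction, at 0.51 to 0.95 of the level in the other cells. Within the cells with Alox15 or Prg4, Lyve1 had 275 and 204 CPM in the siCont libraries and 5.83 (4 UMIs) and 55.1 CPM in the siFXR1-LNA libraries, and Fcna had 2606 and 1935 CPM against 923 and 1053 CPM. Timd4, with 222 and 31.0 CPM against 58.3 and 34.9 CPM, and Vsig4, with 130 and 194 CPM against 37.9 and 149 CPM, overlapped between the groups there.

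Cells with Ccl8 or Cbr2 numbered 893, 503, 82 and 287, or 47.4% and 39.0% of the stricter siCont macrophages and 8.79% and 23.4% of the siFXR1-LNA ones. Lyve1 was 10.5 to 28.0 times as high in them, Folr2 4.20 to 6.71 times, Mrc1 3.73 to 4.05 times and Fcna 3.26 to 6.39 times, in 4 of 4 libraries each. The step of Mrc1 was nearly equal in the 4 libraries. Gata6 and Marco were lower with Ccl8 or Cbr2 in 4 of 4 libraries. Vsig4, which was also higher with Alox15 or Prg4, was 1.36 to 4.13 times as high in 4 of 4. Timd4 was higher in 3 of 4, at 2.25 and 1.57 times with siCont and 3.52 times in siFXR1-LNA replicate 2. In siFXR1-LNA replicate 1 it was at 0.44 times, on 3 UMIs. Lyve1 also differed between groups within these cells, with 490 and 375 CPM against 150 and 123 CPM, and Folr2 had 607 and 407 CPM against 179 and 275 CPM. In cells with neither gene, Lyve1 had 46.5 and 13.4 CPM against 8.86 and 7.50 CPM. In the siFXR1-LNA libraries a smaller share of cells thus reached 2 UMIs of Ccl8 or Cbr2, and Lyve1 and Folr2 were lower within those cells. The class was set by UMIs of Ccl8 and Cbr2, at median depths of 6127, 9427, 5389 and 8210 UMIs. Number of cells and level per cell therefore stay unseparated.

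**Figure D4:**
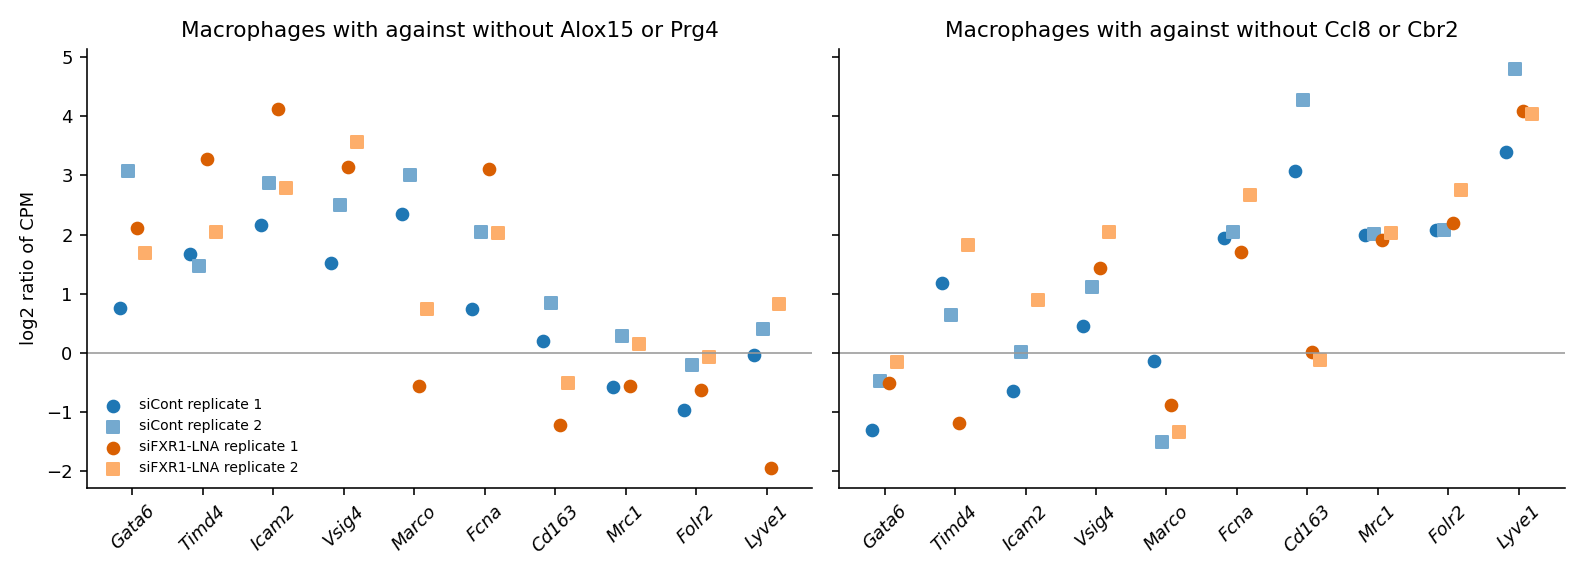
Log2 ratio of CPM in stricter macrophages with at least 2 UMIs of a gene pair to CPM in those with none, for Alox15 or Prg4 (left) and Ccl8 or Cbr2 (right), 1 point per library and gene. Icam2, Vsig4, Timd4, Gata6 and Fcna lie above 0 in all 4 libraries on the left, and Lyve1, Folr2, Mrc1, Fcna and Vsig4 on the right. Icam2 in siFXR1-LNA replicate 1 is not drawn on the right because it had under 3 UMIs.

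Cd163, the hemoglobin-haptoglobin receptor, differed between the groups in where it was found. In the siCont libraries it was in cells with Ccl8 or Cbr2, with 44.6 and 245 CPM there against 5.30 and 12.6 CPM in cells with neither. In the siFXR1-LNA libraries it was as high without the pair as with it, with 150 and 120 CPM against 149 and 131 CPM. Cells with Nos2 or Acod1 had 166 and 154 Cd163 CPM in the siFXR1-LNA libraries, above the 132 and 89.5 CPM of cells with neither. The siCont libraries held 13 and 22 such cells, with 0 Cd163 UMIs, too few to place a level. With Ccr2 or Ly6c2, Cd163 had 206 and 153 CPM against 78.5 and 98.1 CPM without in the siFXR1-LNA libraries, but 15.9 and 103 CPM against 37.8 and 123 CPM in the siCont libraries. The summed level of Cd163 over macrophages does not tell in which cells it was found. In that sum siCont replicate 2 and both siFXR1-LNA libraries lay within 99.7 to 119 CPM, and siCont replicate 1 was at 16.7 CPM.

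**Figure D5:**
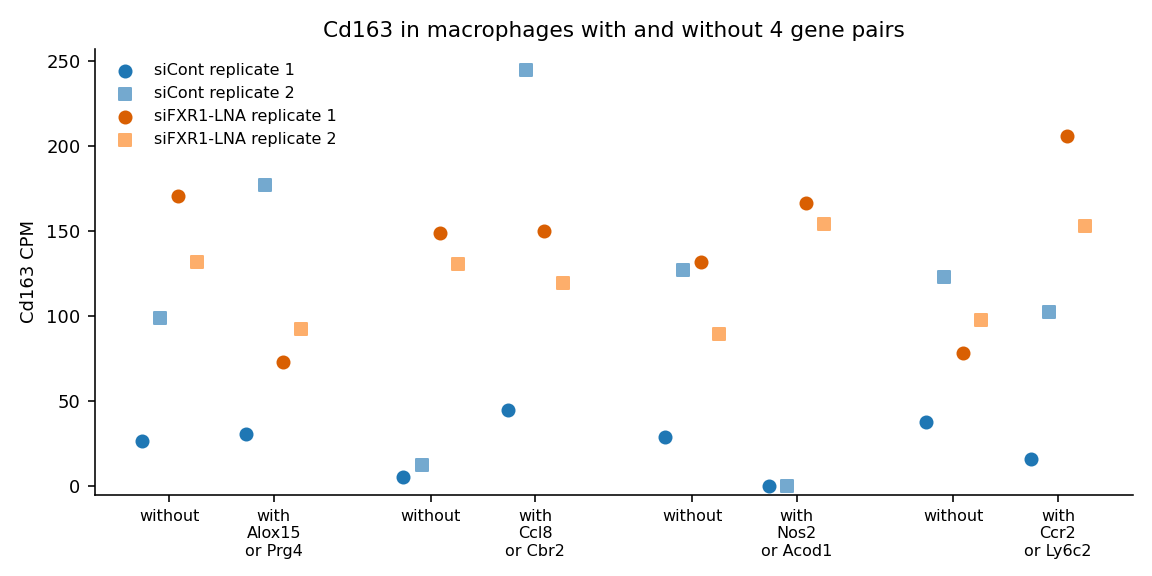
Cd163 CPM in stricter macrophages without and with at least 2 UMIs of each of 4 gene pairs, 1 point per library. The 2 siCont points rise from 5.30 and 12.6 to 44.6 and 245 with Ccl8 or Cbr2, whereas the 2 siFXR1-LNA points stay between 120 and 150.

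Cells with Nos2 or Acod1 made up 0.690% and 1.71% of the stricter siCont macrophages and 47.2% and 46.1% of the siFXR1-LNA ones, and in the latter they were deeper (medians of 8194.5 and 11463 UMIs against 4535 and 7145). In the siFXR1-LNA libraries they had 4.03 and 5.17 Lyve1 CPM against 60.3 and 87.0 CPM in cells with neither, and 1.07 and 2.74 Vsig4 CPM against 22.5 and 65.7 CPM. Among cells with neither Nos2 nor Acod1, Lyve1 had 307 and 179 CPM in the siCont libraries, above both siFXR1-LNA values. Folr2 was likewise apart, with 418 and 241 CPM against 107 and 193 CPM. Mrc1 overlapped between groups in those cells, with 491 and 342 CPM against 333 and 411 CPM. Vsig4, with 68.5 and 81.1 CPM against 22.5 and 65.7 CPM, and Fcna, with 1861 and 820 CPM against 533 and 795 CPM, nearly did. Cells with Ccr2 or Ly6c2 had less Timd4, Lyve1, Folr2, Vsig4, Mrc1, Icam2 and Fcna than cells without in 4 of 4 libraries.

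The genes most like each of the 10 over single macrophages were taken by the mean over 4 libraries of Pearson's r of log-normalised values among 9201 genes. Icam2 was nearest to Prg4 (r = 0.330), Alox15 (0.295) and F5 (0.245), and Vsig4 to Prg4 (0.202), C4b (0.188) and Alox15 (0.163). Timd4 was nearest to Cd5l (0.280), Fcna (0.207) and Ctsd (0.165). Its mean r was 0.144 with Marco, 0.115 with Lyve1, 0.106 with Folr2, 0.0923 with Vsig4 and 0.0732 with Icam2. The r of Timd4 with Lyve1 ran from 0.0399 in siCont replicate 2 to 0.224 in siCont replicate 1. Marco was nearest to Cxcl13 (0.176), Prg4 (0.173) and Arg1 (0.171). Lyve1 was nearest to Fcna (0.378), Cbr2 (0.375) and Folr2 (0.336). Folr2 was nearest to Cbr2 (0.486), Ltc4s (0.456) and Ccl6 (0.440), Mrc1 to Ccl6 (0.476), F13a1 (0.451) and Nrp1 (0.449), and Cd163 to F13a1 (0.286), Pf4 (0.277) and Arg1 (0.262). Fcna had the closest neighbors, with Apoe at 0.541, Padi4 at 0.539 and Cd5l at 0.537. Gata6 was nearest to Zfpm2 (0.138), Kcnd2 (0.133) and Ptprd (0.129), none of which is on the macrophage lists used here. The points share library, depth and free RNA, and the values are descriptions.

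Of the other genes of these programs, few passed the test in all macrophages. Of 20 genes of large peritoneal macrophages, 1 rose and 1 fell, with a median log2 fold change of -0.18. The gene that rose was Saa3, an acute-phase protein that is also on the inflammatory list, at 803 and 1282 CPM against 48944 and 43146 CPM (log2 fold change 5.61, adjusted p = 0.0322), and the gene that fell was Gbp2b, at 22.7 and 36.2 against 0.908 and 2.40 CPM (-3.98, adjusted p = 0.0482). Of 17 tested genes of Lyve1 tissue macrophages, 1 fell, the lectin Clec10a (log2 fold change -1.30, adjusted p = 0.0374), and the median was -1.30. Of 16 genes of monocyte-derived and small peritoneal macrophages none passed (median -1.48). Of these, 10 had an unadjusted edgeR p under 0.05, beside 4317 of all 15474 genes tested. Of 18 regulators of macrophage fate 1 rose, Spic, a factor of iron-recycling macrophages, at 1.81 and 1.11 against 7.57 and 8.48 CPM (log2 fold change 2.57, adjusted p = 0.0466).

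Among 13 tested scavenger receptors, 3 of them among the 10, 1 fell, Cd5l, a secreted macrophage protein, at 267 and 231 against 43.7 and 44.9 CPM (log2 fold change -2.36, adjusted p = 0.0267). Among 15 tested genes for the uptake of apoptotic cells, 2 fell, the receptor Axl, at 145 and 141 against 35.6 and 38.9 CPM (-1.80, adjusted p = 0.0267), and Pros1, which bridges apoptotic cells to such receptors (-1.74, adjusted p = 0.0457). Of 15 inflammatory genes 6 rose, with a median of 1.88, led by Nos2 at 0.181 and 0.145 against 310 and 259 CPM (log2 fold change 10.83, adjusted p = 0.00955). The next were Cxcl2, a neutrophil chemokine (6.64, adjusted p = 0.0267), and Acod1 (5.86, adjusted p = 0.0211). C1qa, C1qb and C1qc, which enter the macrophage call, had log2 fold changes of -1.15, -1.16 and -1.05 and did not pass. Of the marker lists for other cells, that of platelets held 1 gene that rose, Ppbp (3.66), and that of erythroid cells 1 that fell, Hba-a2 (-1.39). None passed among markers of B cells, T cells, neutrophils, dendritic, tumor or mesothelial and endothelial cells. Among the latter, 8 of 32 tested had an unadjusted edgeR p under 0.05, beside 4317 of all 15474 genes tested. Summed B cell markers were at 264 and 136 CPM of macrophage UMIs in the siCont libraries and 20.1 and 43.1 CPM in the siFXR1-LNA libraries, and summed neutrophil markers at 23.6 and 164 against 348 and 718 CPM. Among macrophages with fewer than 2 UMIs of other cells' markers and the first rule sum, 3 of the 10 genes were called lower, where 628 of 13225 genes were. These were Lyve1 (edgeR adjusted p = 0.0213), Icam2 (0.0429) and Folr2 (0.0451), while Mrc1 (0.0588) and Fcna (0.0597) did not pass.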

How the data were processed

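Ascites cells of 4 libraries were profiled with 10x Genomics 3′ chemistry. The authors deposited UMI counts per gene and barcode, not normalized, made with Cell Ranger 7.0.0 on mm10 per the labels. Following the methods, 132644 of 133849 barcodes passed limits of 100 to 4800 genes and of 15% mitochondrial UMIs, many more than the methods state. The methods left out 1 siFXR1-LNA replicate with fewer reads; both were kept here, and without either no gene was called by edgeR (1959 and 2822 at an unadjusted p under 0.05). Counts were summed per library over macrophages (20716786 to 42113346 UMIs) and given as CPM. For the comparison of groups, edgeR 4.0.16 was fitted to them (TMM, filterByExpr, quasi-likelihood test, Benjamini-Hochberg, threshold 0.05). Checked on data simulated at these counts, the test recovered 92.8% of genes changed 4-fold and 18.4% of those changed 2-fold, with 5 unchanged genes called. The simulation gave every gene the same dispersion of 0.05, not fitted to these libraries, so it does not give the power here. In the data, Timd4, Vsig4, Icam2 and Fcna had fitted folds of 4.35, 4.20, 4.03 and 4.97 and did not pass, whereas Lyve1 and Folr2 did. Shares were compared by an exact permutation test over libraries. Labels do not say whether libraries were separate cohorts, so p-values measure the spread between these samples.

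The 10 genes and all lists were chosen with earlier results of these data known. Named genes are the 10, up to 4 called genes with the largest change per list, and the 3 nearest genes by correlation among genes in at least 2% of macrophages of every library; single other values were named after being seen. Alternatives were RLE factors, DESeq2 1.42.0, no low-count filter, a replicate block, other cell filters and thinning depths, and each library left out. Promoters are from RefSeq, GRCm38.p6, and gene coordinates from GENCODE vM21; all 10 gene identifiers matched.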

Additional observations from a re-analysis of the deposited data

Results flagged for a closer look

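All 10 genes were searched under each of the 4 splits of the stricter macrophages, where every library held at least 3 UMIs on both sides. In 3 cases the 2 siCont libraries moved one way and the 2 siFXR1-LNA libraries the other. How many such cases random signs would give was not worked out. The differences were not tested, and the splits were chosen after the data had been seen. Values are log2 ratios of CPM in cells with at least 2 UMIs of a gene pair to cells with none. For Cd163 with Alox15 or Prg4 they were 0.19 and 0.84 with siCont against -1.23 and -0.51 with siFXR1-LNA, a difference of means of -1.38. For Cd163 with Ccr2 or Ly6c2 they were -1.25 and -0.26 against 1.39 and 0.64, a difference of 1.77. For Timd4 with Nos2 or Acod1 they were 0.26 and 2.26 against -2.49 and -3.16, a difference of -4.09, where the siCont libraries held 13 and 22 cells with the pair and 14 and 15 Timd4 UMIs in them.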

How the results depend on the processing

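Of 16 alternatives, the direction of each of the 10 genes was kept in all but 1 case: without siCont replicate 2, Gata6 turned from a log2 fold change of 0.51 to -0.12 (from -0.12 to 1.73 over the libraries left out) and its share at 1000 UMIs from a difference of 1.58 to -0.0598 percentage points (from -0.0598 to 3.21). Lyve1 and Folr2 were each called in 14 of 16, and lost the call (adjusted p from 0.183 to 0.284) only without siFXR1-LNA replicate 1 or 2, when no gene was called at all (1959 and 2822 at an unadjusted p under 0.05). Over the libraries left out in turn, genes called ran from 0 to 1225, beside 509 with all libraries, and members called from 0 to 6, beside 2. Marco was called higher only without siCont replicate 1 (adjusted p = 0.0241) and Cd163 only without siCont replicate 2 (adjusted p = 0.0133). Genes called of those tested were 2132 of 14291 with a rule sum of at least 10 and 1739 of 14814 with a UMI of Csf1r or Adgre1. The stricter set (added after seeing the data) gave 1992 of 12720, and 5 members were called in each of these. With no low-count filter 2034 of 23370 genes were called and with DESeq2 2514 of 15474, with 7 members in each. With under 2 UMIs of other cells' markers 1435 of 13225 genes and 3 members were called, and with cells thinned to 1000 UMIs 149 of 12467 genes and 2 members. The cause of these shifts was not tested. With the replicate block, 1317 of 15474 genes and 5 members were called, the members being lower. Deviations of same-numbered libraries correlated at 0.287, but the labels say of no shared day or animal. There are 2 pairs only, so the replicate numbers were taken as names. Pairs above 0 in all libraries stayed within 1.5 times the main count under each alternative, counting pairs whose sign came from the added constant. Those with joint cells in every library were 23 in all macrophages and 14 in the stricter set, a larger drop. The 2 libraries per group limit every test.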
